A study of Mus musculus with 2 samples.

Results

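The Mir302-367 and Mir290 clusters encode the microRNAs best known from pluripotent cells of the mouse embryo, and their 10 hairpins were examined in embryonic limb. The hairpins were chosen by gene symbol, 5 from the Mir302-367 cluster on chromosome 3 (Mir302a, Mir302b, Mir302c, Mir302d and Mir367) and 5 from the Mir290 cluster on chromosome 7 (Mir291a, Mir292, Mir293, Mir294 and Mir295). All 10 were among the 1973 miRNA genes counted. The samples were 2 libraries of small RNA below 30 nt from limb of strain B6NCrl, embryonic day 11.5, both sexes pooled and healthy. Replicate 1 pooled limbs of 109 embryos and replicate 2 those of 88. They form a single group with no second tissue, stage or treatment, and both carry the same donor identifier, so each SD and p-value below measures the spread between these libraries alone.

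A microRNA is cut from a hairpin and represses messenger RNAs that pair with its seed, bases 2 to 8 of the mature strand. In mouse embryonic stem cells the Mir290 and Mir302 microRNAs share a seed and speed the entry into DNA replication by repressing inhibitors of the cell cycle. The Mir290 cluster is transcribed from the early embryo on and later in germ cells, while the Mir302-367 cluster is best known from the epiblast after implantation and from early germ layers around gastrulation. The let-7 family acts against this programme and accumulates as cells differentiate.

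The Mir302-367 hairpins lie within 580 bp of chromosome 3, from 127545228 to 127545807 of assembly mm10, all on the plus strand. GENCODE places them in an intron of Larp7, a gene for an RNA-binding protein transcribed from the minus strand. Their order along the chromosome is Mir302b, Mir302c, Mir302a, Mir302d and Mir367, with gaps of 43 to 65 bp. The hairpins are shown because likeness between them can affect which short reads are counted. Capitals mark the letters aagugc, the core of the shared seed, and in Mir367 its own, different seed. The sequences are those of RefSeq on GRCm38.p6.
Mir302b: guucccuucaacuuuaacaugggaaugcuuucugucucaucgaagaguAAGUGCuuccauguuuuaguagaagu
Mir302c: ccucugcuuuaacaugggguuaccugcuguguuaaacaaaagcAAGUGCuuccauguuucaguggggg
Mir302a: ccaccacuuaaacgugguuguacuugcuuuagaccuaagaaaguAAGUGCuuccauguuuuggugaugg
Mir302d: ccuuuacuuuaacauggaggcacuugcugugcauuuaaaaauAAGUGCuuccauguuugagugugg
Mir367: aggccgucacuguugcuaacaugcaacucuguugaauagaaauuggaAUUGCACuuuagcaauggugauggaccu

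The longest stretch that Mir302a and Mir302b have in common is 20 nt. Mir302d shares 17 nt with either of them, and Mir302c shares 16 nt with each of the others. Mir367 shares at most 9 nt with any of the 4 Mir302 hairpins. Reads that map to several places are on a line of their own in the files, at 24.7% of reads in replicate 1 and 23.4% in replicate 2, so a short read from a stretch common to Mir302a and Mir302b is in neither count. The files do not assign such reads to genes.

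The Mir290 members lie on chromosome 7 between 3218919 and 3220841, a span of 1923 bp, also on the plus strand. Here GENCODE annotates exons of Nlrp12, a gene of the innate immune system, on the minus strand. The mature 3′ strands set the clusters side by side, with the seed of each in capitals.
miR-302b-3p: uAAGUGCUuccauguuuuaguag
miR-302c-3p: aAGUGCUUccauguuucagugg
miR-302d-3p: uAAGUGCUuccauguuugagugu
miR-367-3p: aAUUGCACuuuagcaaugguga
miR-291a-3p: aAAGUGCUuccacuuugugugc
miR-293-3p: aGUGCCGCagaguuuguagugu
miR-294-3p: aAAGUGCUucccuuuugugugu
miR-295-3p: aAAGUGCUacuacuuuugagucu

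By these sequences, 5 members have the seed AAGUGCU: Mir302b and Mir302d on chromosome 3, and Mir291a, Mir294 and Mir295 on chromosome 7. The RefSeq table used here lists no 3′ strand for Mir302a and Mir292, so they are not among these 5; the hairpin of Mir302a holds the same letters AAGUGCU. No other mature strand in the table has that seed. The 3′ strand of Mir302c starts 1 base later, which gives it the seed AGUGCUU. Mir293 has the seed GUGCCGC and Mir367 the seed AUUGCAC.

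The Mir302-367 cluster had about 15 times the sense counts of the Mir290 cluster in limb. Its hairpins summed to 3096 sense counts in replicate 1 and 3809 in replicate 2, whereas the Mir290 hairpins summed to 202 and 254. As a share of all sense counts, the Mir302-367 cluster held 0.107% ± 0.004 and the Mir290 cluster 0.00709% ± 0.00036 (SD, n = 2 each). The Wilson 95% interval for Mir302-367 ran between 0.101% and 0.109% in replicate 1, and between 0.107% and 0.114% in replicate 2. For Mir290 it ran between 0.00596% and 0.00785% in replicate 1, and between 0.00649% and 0.00830% in replicate 2. The intervals of the cluster sums did not overlap in either library.

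Within each library, the ratio of the Mir302-367 sum to the Mir290 sum was 15.3 in replicate 1 (exact 95% interval 13.3 to 17.8) and 15.0 in replicate 2 (13.2 to 17.1). On the log2 scale this was 3.92 ± 0.02 (SD, n = 2), with a counting error of 0.10 in replicate 1 and 0.09 in replicate 2, both larger than the SD. An exact sign-flip test over 2 libraries cannot go below p = 0.5, so none was run. Part of the ratio comes from Mir302a and Mir302b. Without the hairpins that share a 20-nt stretch with another annotated hairpin (Mir302a, Mir302b and Mir291a), it was 2.48 on the log2 scale. Leaving these hairpins out removes their counts and does not correct for lost reads. Such a loss would make the counts of Mir302a and Mir302b too low, not too high. The same holds for Mir291a in the Mir290 sum, and the net effect on the ratio was not tested. In bulk tissue, few cells with much of a miRNA and many cells with little of it cannot be told apart.

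**Figure D1:**
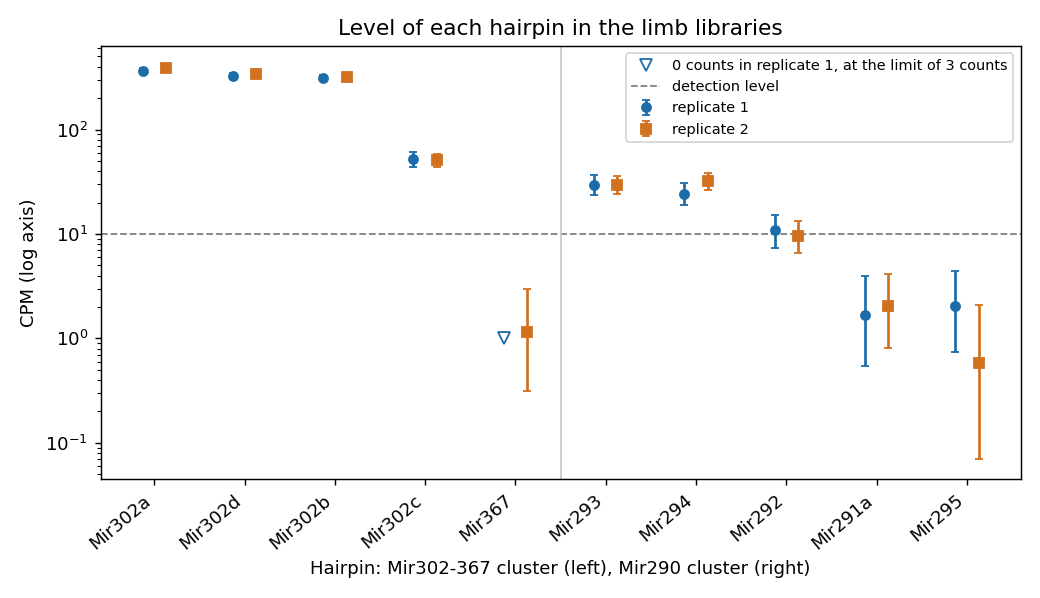
CPM of the 10 hairpins (log axis) in replicate 1 (circles) and replicate 2 (squares), with exact Poisson 95% intervals, Mir302-367 members on the left and Mir290 members on the right. Mir302a, Mir302d and Mir302b lie between 309 and 388 CPM, Mir302c near 51 CPM, and the open triangle marks the 0 counts of Mir367 in replicate 1 at the limit that 3 counts allow.

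Within the Mir302-367 cluster, 3 hairpins supplied nearly all counts. Mir302a was the most abundant, with 1075 counts or 364 CPM (counts per 1000000 sense counts of a library) in replicate 1 and 1341 counts or 388 CPM in replicate 2. Mir302d had 955 counts (323 CPM) in replicate 1 and 1178 counts (341 CPM) in replicate 2. Mir302b followed with 912 counts (309 CPM) and 1111 counts (321 CPM). By mean CPM the 3 hairpins ranked 133, 136 and 140 among the 1973 genes, of which 295 were detected. Of the cluster's counts, Mir302a made up 35.0% ± 0.3, Mir302d 30.9% ± 0.1 and Mir302b 29.3% ± 0.2 (SD, n = 2 each).

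The order among them was the same in both libraries, but not every step exceeded counting error. Mir302a over Mir302d was 1.13 in replicate 1 (exact 95% interval 1.03 to 1.23) and 1.14 in replicate 2 (1.05 to 1.23). Mir302d over Mir302b was 1.05 (0.955 to 1.15) and 1.06 (0.976 to 1.15), an interval that includes equality in each library. A read wholly within the 20-nt stretch that Mir302a and Mir302b share would be missing from both, so neither ratio is free of the counting rule. The mature 3′ strand of Mir302b, at 23 nt, is longer than that stretch. Mir302d shares 17 nt with either of them, so a still shorter read could be missing from Mir302d too.

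Mir302c was lower by a wide margin, although it lies between Mir302b and Mir302a. It had 154 counts (52.1 CPM) in replicate 1 and 175 counts (50.6 CPM) in replicate 2, which was 4.78% ± 0.27 of the cluster. Mir302a stood 2.87 ± 0.10 log2 units above it and Mir302b 2.62 ± 0.07 (SD, n = 2), with counting errors between 0.12 and 0.13. Mir302c shares no 20-nt stretch with another annotated hairpin, but shares 16 nt with each of the other Mir302 hairpins. Its rank by mean CPM was 230.

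Mir367, the last hairpin of the cluster, was close to absent from the counts. It had 0 counts in replicate 1, which allows up to 1.02 CPM by the limit of 3 counts (1.25 CPM by the exact Poisson 95% interval), and 4 counts (1.16 CPM) in replicate 2. Mir302a was at least 358-fold higher in replicate 1, set against 3 counts in that library (the exact 95% interval of the ratio starts at 291), and 335-fold higher in replicate 2 (exact 95% interval 131 to 1232). Against its nearest neighbour Mir302d, the same values were at least 318-fold (exact interval from 258) and 295-fold (115 to 1083). Mir367 shares no 20-nt stretch with another annotated hairpin. The least abundant Mir302 hairpin, Mir302c, was still 43.8-fold above it in replicate 2 (16.8 to 162).

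The predicted folds of the hairpins do not follow their counts. The minimum free energy by RNAfold was −34.5 kcal/mol for Mir367, −31.7 for Mir302a, −28.6 for Mir302c, −27.5 for Mir302d and −23.3 for Mir302b. GC content lay between 39.2% and 47.1%, with Mir302c at the top and Mir367 at 42.7%. The counts do not separate the 5′ from the 3′ strand of a hairpin, so the strand that supplied them is not known.

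**Figure D2:**
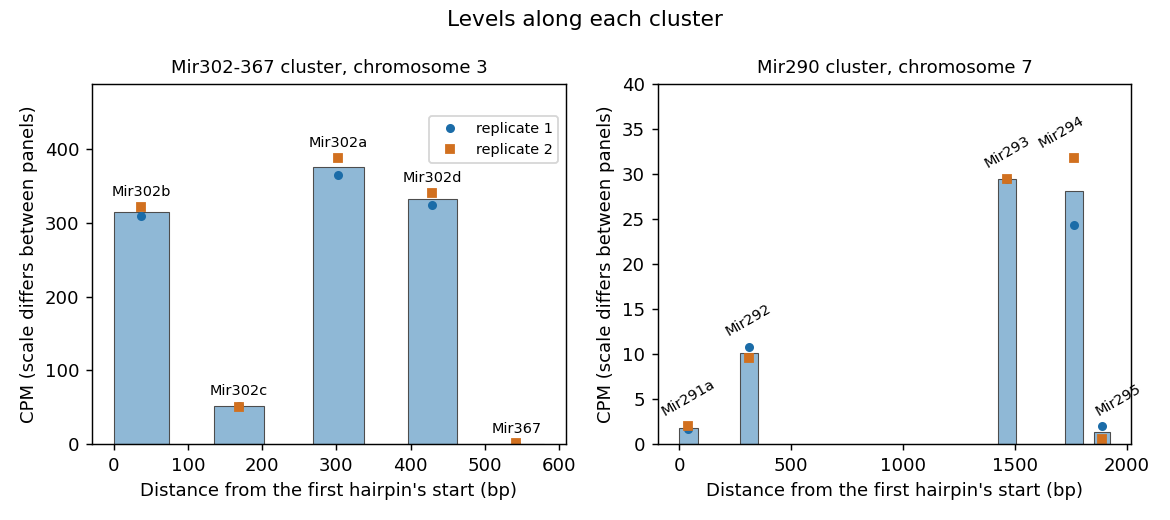
Mean CPM of each hairpin (bars, width equal to hairpin length) against its distance from the first hairpin's start, with both libraries as points, for the Mir302-367 cluster (left) and the Mir290 cluster (right, on its own scale). Mir302c is low between 2 high neighbours, Mir367 is near 0, and most Mir290 counts lie at Mir293 and Mir294.

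In the Mir290 cluster, Mir293 and Mir294 were the only members that reached 10 CPM in both libraries, the level used for detection. Mir293 had 87 counts (29.5 CPM) in replicate 1 and 102 counts (29.5 CPM) in replicate 2. Mir294, which carries the seed of Mir302b and Mir302d, had 72 counts (24.4 CPM) and 110 counts (31.8 CPM). Their order changed between the libraries: Mir293 over Mir294 was 1.21 in replicate 1 (exact 95% interval 0.874 to 1.67) and 0.927 in replicate 2 (0.701 to 1.23), so they could not be ranked at this depth. Together they held most of the cluster, Mir293 41.6% ± 2.1 and Mir294 39.5% ± 5.4 of its counts (SD, n = 2 each).

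The other Mir290 members were lower still. Mir292 lay at the detection level, with 32 counts (10.8 CPM) in replicate 1 and 33 counts (9.54 CPM) in replicate 2. Mir291a had 5 and 7 counts, and Mir295 had 6 and 2, although both carry the same seed as Mir294. Mir291a shares a 20-nt stretch with Mir291b, its near copy in the locus, so its count is uncertain. Mir291b and Mir290a, hairpins of the locus outside the 10 members, had 7 and 5 counts and 1 and 3 counts. The intervals of Mir291a, Mir295 and Mir367 overlap in both libraries, so the bottom of the order is not resolved.

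Across both clusters the levels ran from Mir302a through Mir302d, Mir302b and Mir302c to Mir293 and Mir294, then Mir292, and last Mir291a, Mir295 and Mir367. Mir302c, the weakest detected hairpin of its cluster, was 1.77 times Mir293 in replicate 1 (exact 95% interval 1.35 to 2.33) and 1.72 times in replicate 2 (1.34 to 2.21). Detection therefore covered 4 of 5 Mir302-367 hairpins and 2 of 5 Mir290 hairpins. Of all 1973 genes, 1267 had no sense count in either library. All 10 members had at least 4 counts over the 2 libraries together, and on the opposite strand all 10 had 0 counts in both.

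Among the hairpins with a 3′ strand of the seed AAGUGCU, those of chromosome 3 held most of the counts. Counts are not split by strand, so the values here are of whole hairpins, not of the strand with the seed. The 5 hairpins summed to 660.3 CPM in replicate 1 and 696 CPM in replicate 2, and to 1024 and 1084 CPM with Mir302a, added for the letters in its hairpin. Mir294 was the only Mir290 hairpin among them that was detected. A wider group was formed after the values were seen, of the 17 listed hairpins with AAGUGC within the first 8 bases of a mature strand. Of the 1738 mature strands in the RefSeq table, 1.04% hold these letters there. The 6 members in this group held 0.563% of its CPM in replicate 1 and 0.579% in replicate 2. With Mir302a and Mir292 added for the letters in their hairpins, the members held 0.857% and 0.884%; both additions were chosen after the data were seen. Mir17, of the proliferation-linked Mir17-92 cluster, alone reached 71053 CPM in replicate 1, and 72565 CPM in the other library. It was followed by its relatives Mir20a, Mir93 and Mir106b, at means of 25795, 13801 and 12651 CPM.

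Mir367 was likewise minor within its own seed family. Its 4 counts in replicate 2 were 0.0121% of the family's CPM there. All 7 listed hairpins with the seed AUUGCAC, Mir367 included, summed to 9726 CPM in replicate 1 and 9520 CPM in replicate 2. These family values too are of whole hairpins, not split by strand. Mir92-1 led the family with 6531 CPM and 6282 CPM, but shares a 20-nt stretch with another hairpin, so its count can be too low. Mir363 averaged 1113 CPM, Mir25 922 CPM, Mir92b 513 CPM and Mir32 371 CPM.

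**Figure D3:**
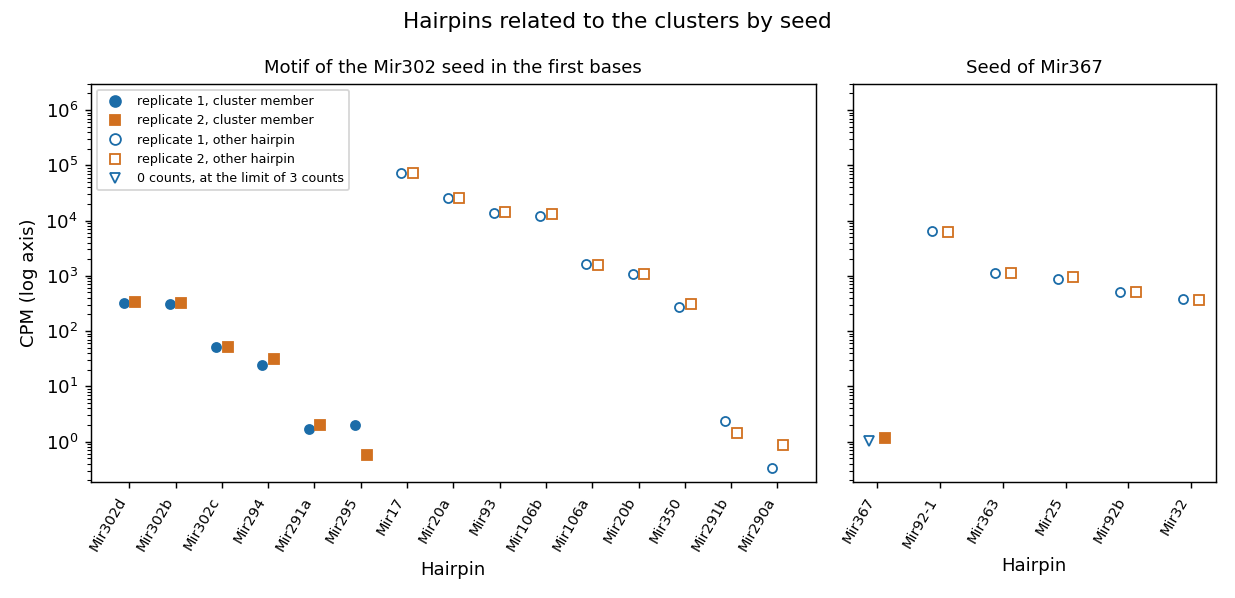
CPM (log axis) in each library of the hairpins with the core of the Mir302 seed in the first bases of a mature strand (left) and of those with the seed of Mir367 (right). Filled symbols are members of the clusters, from 341 CPM down to below 1 CPM, and open symbols the other hairpins, of which Mir17 reaches 72565 CPM.

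No tested member passed the test of a difference between the libraries. Of the 10 members, 8 had the 10 counts over both libraries needed for the exact binomial test, and 0 of those 8 passed after Benjamini-Hochberg adjustment over all 422 tested genes. Among all tested genes 21.3% passed, 11.8% with higher and 9.48% with lower values in replicate 1. At an unadjusted p under 0.05 the count of members was also 0, against 120 genes. The test passes smaller differences at higher counts: Mir17, with 209824 and 251016 counts, passed at a log2 ratio of −0.02. The members rank 133 or below by mean CPM, so 0 of 8 does not show closer agreement than in other genes. The lowest adjusted p was that of Mir294, with a log2 ratio of −0.37 for replicate 1 over replicate 2 (adjusted p = 0.287, exact binomial test). For Mir302a the log2 ratio was −0.08, for Mir302d −0.06, for Mir302b −0.04 and for Mir302c 0.06. The median over the 4 tested members was −0.05 for Mir302-367 and −0.10 for Mir290, beside 7.65e-06 over all tested genes.

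**Figure D4:**
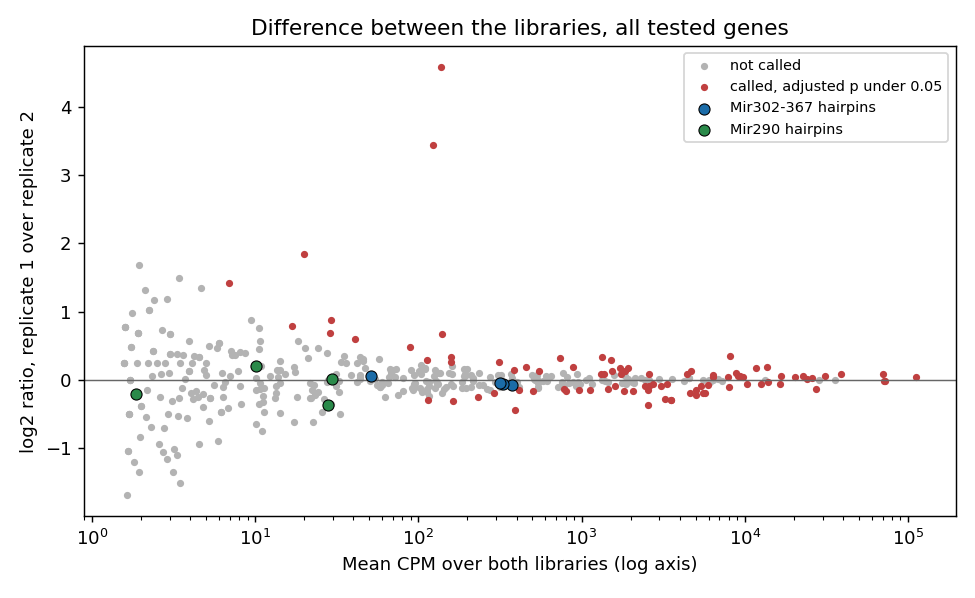
Log2 ratio of replicate 1 over replicate 2 against mean CPM (log axis) for the 422 tested genes; red points passed the exact binomial test, and the large points are the 8 tested members. The Mir302 hairpins lie between −0.08 and 0.06, and no member is among the red points.

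Both clusters lay far below the let-7 family. The Mir302-367 hairpins held 0.105% of the sense counts in replicate 1 and 0.110% in replicate 2, while the 10 listed let-7 hairpins held 2.41% and 2.04%. The ratio of Mir302-367 to let-7 was 0.0435 in replicate 1 and 0.0541 in replicate 2, or −4.37 ± 0.22 on the log2 scale. That spread exceeds the counting errors of 0.026 and 0.024. Of the 10 tested let-7 hairpins 6 passed with higher values in replicate 1 and 0 with lower ones, with a median log2 ratio of 0.32. Marker lists also held calls between the same libraries. Of 7 tested epithelial markers 5 passed with lower values in replicate 1 and 0 with higher ones (median log2 ratio −0.14). Of 10 tested limb mesenchyme and cartilage hairpins 6 passed higher and 1 lower (median 0.09). Over all tested genes 11.8% passed higher and 9.48% lower, and the test passes smaller differences at higher counts. The part of these marker lists in the let-7 ratio was not tested. Mirlet7g, at 12327 and 11045 CPM, and Mirlet7i, at 9122 and 7188 CPM, led the family. Of the 10 listed let-7 hairpins, 5 share a 20-nt stretch with another annotated hairpin, so their counts can be too low.

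Other lists give the setting. The Mir17-92 cluster and its paralogs held 14.8% of sense counts in replicate 1 and 15.0% in replicate 2, and of its 15 tested hairpins 2 passed higher and 3 lower in replicate 1. A 20-nt stretch is shared with another hairpin by 4 of these 15, so their counts can be too low. The Sfmbt2 intron cluster, known from embryonic stem cells and placenta, held 0.267% and 0.254%. Only 8 of its 59 listed hairpins were detected, led by Mir467d at 935 and 831 CPM and Mir467e at 611 and 594 CPM. A 20-nt stretch is shared with another hairpin by 58 of the 59, and 1 of the 10 tested passed, higher in replicate 1.

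Markers of limb and of other cell types were read beside the members. The pluripotency members held 0.112% of counts in replicate 1 and 0.117% in replicate 2. The 10 hairpins of limb mesenchyme and cartilage, all detected, held 18.3% and 17.6%, led by Mir196b of the Hoxa cluster at 72172 and 68466 CPM. Of these 10, 5 share a 20-nt stretch with another hairpin, so their counts can be too low. Endothelial Mir126a held 2.43% and 2.41%, and epithelial markers, led by Mir205, held 1.32% and 1.53%. White blood cell markers (0.0660% and 0.0725%, led by Mir155), skeletal muscle markers (0.0560% and 0.0576%, led by Mir206) and erythroid markers (0.0367% and 0.0481%, led by Mir451a) had lower sums than the 10 members, with at most 5 listed hairpins each. Only 2 of the 4 listed white blood cell hairpins were detected, and 1 had no sense count in either library. Of the 5 listed muscle hairpins 2 were detected and 3 had no sense count. Singly, Mir155 (396 and 431 CPM) and Mir206 (529 and 552 CPM) were above Mir302a in both libraries, and Mir451a (331 and 451 CPM) in replicate 2 only. Neural markers summed to 2.03 and 2.31 CPM, and 4 of the 5 listed had no sense count; all 5 share a 20-nt stretch with another hairpin, so these values can be too low, as can those of 4 of the 5 listed muscle hairpins. No list marks germ cells or another source of Mir302 and Mir290, so which cells the counts come from was not tested.

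Outside the clusters, Mir329, Mir137 and Mir500 were nearest in level to the mean profile of the 4 detected Mir302 hairpins, which stood at 209 CPM in replicate 1 and 216 CPM in replicate 2. Their Euclidean distances over the 2 libraries were 0.03, 0.05 and 0.06 on the log2(CPM + 1) scale. Mir669o and Mir141 followed at 0.08 and 0.17. With 2 libraries of 1 tissue, this likeness is one of level. The mean profile lies between Mir302c (mean 51.4 CPM) and Mir302b (mean 315 CPM), so it is the level of no single member.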

How the data were processed

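The values deposited by the authors are raw read counts per miRNA gene, 1 file per library, on assembly mm10 with GENCODE annotation M4, per the file headers and notes; the aligner and the counter are, with their settings, not given in the sources used here. Of 3 count columns, the one holding nearly all counts was used as sense. Replicate 1 had 2953085 sense counts and replicate 2 had 3459176 (44.3% and 46.6% of 6661559 and 7420829 reads); unmapped (23.6% and 23.5%), multimapping and no-feature lines stayed out of library sizes. Symbols and positions came from GENCODE M21 (1894 of 1973 identifiers matched), sequences from RefSeq. CPM used all sense counts and was not divided by hairpin length, since reads come from the mature strands. Libraries were compared with an exact binomial test on TMM-scaled sizes, prior count 0.5, with Benjamini-Hochberg adjustment at 0.05. edgeR 4.0.16 gave TMM factors and DESeq2 1.42.0 alternative size factors (R 4.3.3). The quasi-likelihood test needs more than 1 group of 2 libraries. The test was checked on simulated Poisson counts, which hold counting error only, so the check does not cover spread beyond it. Python 3.11.15, numpy 2.4.6, scipy 1.17.1, pandas 2.3.3 and RNAfold 2.7.2 did the rest. Intervals and floors (3 counts) cover counting error only, since PCR copies are not independent molecules. Ratios between hairpins or clusters are ratios of counts. Whether different sequences were captured equally well in the libraries was not tested.

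The members and lists were chosen with earlier results of these data known. Named genes are all members, other hairpins of the Mir290 locus, the 5 most abundant detected hairpins per shared seed, the 5 nearest in level, the 2 leading genes of each related list and the leading marker of each cell type. Mir93 and Mir106b were named after their values were seen.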

Additional observations from a re-analysis of the deposited data

How the results depend on the processing

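With all reads as the denominator the shares fell to 0.0489% for Mir302-367 and 0.00323% for Mir290, by construction. Without hairpins that share a 20-nt stretch, the Mir302-367 share was 0.0384% and its log2 ratio to Mir290 was 2.48; with Mir290a and Mir291b added to Mir290 the ratio was 3.87. Without replicate 1 the share was 0.110% for Mir302-367 and 0.00734% for Mir290, with a log2 ratio of 3.91 and 6 detected members. Without replicate 2 these were 0.105%, 0.00684%, 3.94 and 7. Mir293 over Mir294 had a log2 ratio of 0.08 ± 0.27 over both libraries, 0.27 in replicate 1 alone and −0.11 in replicate 2 alone. Detected members numbered 8 at 1 CPM, 7 at 5 CPM and 4 at 50 CPM. Under the scalings, filters, prior count, count column and overdispersed tests tried, 0 members differed between the libraries, with a lowest adjusted p of 0.251 for any tested member. Over all genes, the overdispersed test with the mean squared deviation left 12 calls, 7 higher and 5 lower in replicate 1, of the 90 (50 higher and 40 lower). Depth limits Mir367, Mir291a and Mir295, whose counts were 7 or fewer per library. With Mir302a added by the letters in its hairpin, an alternative chosen after seeing the data, the hairpins of the seed AAGUGCU averaged 1054 CPM in place of 678 CPM; with Mir302a and Mir292 added, the members' share of the AAGUGC group was 0.871% in place of 0.571%. No paired analysis was possible because the libraries form 1 group.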
